A study of Homo sapiens with 9 samples.

Results

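The hypoxia response and glycolysis genes are 37 genes: HIF1A, the oxygen-regulated subunit of the transcription factor HIF-1, its oxygen sensors and known targets, and the enzymes of glycolysis. Members were chosen by symbol from the array's annotation, and a member was tested where 3 or more of the 9 arrays detected a probe of it (detection p below 0.05). That left 33 of the 37 members among 12698 genes tested, and each gene was read from its brightest probe. CA9 and SLC16A3 had no probe in the annotation used here. PDK1, which restrains pyruvate entry into mitochondria, was detected on 1 of 9 arrays, and LOX, a collagen cross-linking enzyme, on 0 of 9. Of the 33 members tested, 31 were detected on all 9 arrays, ENO2 on 8 and ANKRD37 on 7.

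RNA came from OVISE, an ovarian clear cell carcinoma line whose ARID1A gene is mutated, grown in 3D culture within Matrigel, a gel of basement membrane proteins. In the ARID1A group, 1 µg/mL doxycycline switched on wild type ARID1A, a subunit of the SWI/SNF chromatin remodeller. The GSK126 group received GSK126 at 5 µM, an inhibitor of the histone methyltransferase EZH2, and the DMSO group received the vehicle. Each group had 3 arrays, 1 in each of 3 labelled batches. All groups share the line and its mutation. The labels give no doxycycline to the DMSO group, so doxycycline and ARID1A cannot be told apart. They do not say whether the GSK126 and DMSO cells carried the inducible construct, whether the ARID1A cells were a clone, or what oxygen the cultures had. They also do not say that replicates were separate cultures, so p-values reflect sample-to-sample spread that could be technical alone.

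When oxygen is present, prolyl hydroxylases of the EGLN family mark HIF-1 alpha protein for degradation through VHL. When oxygen is short, the protein is stable, pairs with ARNT and binds a short DNA motif near genes for glucose uptake, glycolysis, vessel growth and mitophagy. Much of this control acts on the protein, so the mRNA of HIF1A need not follow it. Ovarian clear cell carcinoma is known for high expression of HIF targets and glycolytic enzymes.

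The arrays measured between 21317 and 22517 probes above background, and median raw intensity per array lay between 316.6 and 348.5. A probe for ARID1A was detected on 3 of 3 ARID1A arrays and on 0 of 3 in the GSK126 and DMSO groups (normalised log2 intensity 8.67 ± 0.38, 5.56 ± 0.08 and 5.69 ± 0.21, SD, n = 3 each). That is at least 3.74-fold in ARID1A over DMSO (limma adjusted p over all probes = 0.000319), comparing means with no allowance for spread. The other ARID1A probe was detected on every array (10.94 ± 0.10, 10.86 ± 0.03 and 11.07 ± 0.06 in the ARID1A, GSK126 and DMSO groups, SD, n = 3 each) and did not pass. Of 9 epithelial and clear cell markers, 8 had a probe and 7 were detected on all 9 arrays, KRT18 being detected on none. Of 11 markers of leukocytes, fibroblasts and endothelium, 10 had a probe and 7 were detected on none. The leukocyte marker CD14 was detected on 3, 3 and 2 arrays of the ARID1A, GSK126 and DMSO groups, and the fibroblast marker COL1A1 on 1 DMSO array. The endothelial marker VWF was detected on 3 of 3 ARID1A arrays and on 0 of 3 in each other group, at least 1.43-fold above DMSO. Summed over the 10 markers, the 7 undetected ones included, normalised intensity was 837 to 883 on ARID1A arrays. It was 694 to 735 on GSK126 arrays and 697 to 739 on DMSO arrays. Of these markers 2, CD14 and VWF, were tested, and their log2 differences for ARID1A against DMSO were 0.35 and 1.52, without regard to order. The sum of the 8 epithelial markers was also higher in ARID1A, at 255842 to 274268, against 217320 to 221912 in GSK126 and 222379 to 229304 in DMSO. The part of these markers' differences in the values below was not tested, and in bulk RNA fewer cells of a type and less RNA per cell cannot be told apart.

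Promoter sequence from RefSeq (GRCh38.p14) was matched by symbol for 34 members. VEGFA, NDRG1 and BNIP3L are not among them. The 250 bases before each gene start were searched on both strands for ACGTG and GCGTG, the core letters of the HIF motif. A CACGTG stretch holds ACGTG on both strands and counts as 2 matches. Of the 34 members, 29 held a match before at least 1 start, a count with no share over all genes to set beside it. Among the 22 members with 1 listed start, the untested CA9 included, 17 (77.3%) held a match, against 57.6% of 7261 tested genes with 1 start. Counted by start, 40 of the members' 58 starts (69%) held a match. The share was 43.2% of all 35116 promoters in the table, which are not limited to genes tested here. The next 4 are shown, after values and matches were seen, because they run from a HIF target with no match in this window to 1 with 6 matches, the most before any member start, a count that HK2 shares. They lie at chr1:42958869-42959118 (- strand), chr1:231422288-231422537 (- strand), chr10:72273674-72273923 (+ strand) and chr10:131981924-131982173 (- strand). Each runs 5′ to 3′ toward the gene start, and capitals mark the matches.
SLC2A1: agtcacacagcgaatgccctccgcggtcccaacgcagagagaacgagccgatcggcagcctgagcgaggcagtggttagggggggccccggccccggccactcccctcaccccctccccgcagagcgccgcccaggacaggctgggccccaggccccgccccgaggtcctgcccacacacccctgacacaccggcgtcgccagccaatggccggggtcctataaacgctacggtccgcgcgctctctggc
EGLN1: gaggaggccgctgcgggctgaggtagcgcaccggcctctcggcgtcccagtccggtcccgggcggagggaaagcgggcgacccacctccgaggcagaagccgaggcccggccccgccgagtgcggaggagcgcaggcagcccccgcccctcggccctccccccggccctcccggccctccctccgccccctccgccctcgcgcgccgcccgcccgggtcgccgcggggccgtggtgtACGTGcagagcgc
DDIT4: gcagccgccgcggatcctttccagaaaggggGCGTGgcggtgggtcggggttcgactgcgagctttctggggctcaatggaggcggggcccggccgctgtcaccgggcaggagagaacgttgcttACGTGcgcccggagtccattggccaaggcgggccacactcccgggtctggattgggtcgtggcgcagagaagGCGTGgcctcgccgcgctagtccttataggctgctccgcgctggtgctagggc
BNIP3: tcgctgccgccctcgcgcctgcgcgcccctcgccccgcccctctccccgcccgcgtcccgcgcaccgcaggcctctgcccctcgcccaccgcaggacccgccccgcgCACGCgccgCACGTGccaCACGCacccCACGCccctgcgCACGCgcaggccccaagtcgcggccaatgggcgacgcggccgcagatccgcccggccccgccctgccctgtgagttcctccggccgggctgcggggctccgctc
The SLC2A1 window held 0 matches. EGLN1 held ACGTG beginning 13 bases before the start. DDIT4 held 3, beginning 219, 125 and 53 bases before it. BNIP3 held 6 matches in 5 stretches, between 143 and 104 bases before it, the CACGTG stretch among them. A match is a run of letters, not a site shown to be bound, and no match refers to this window alone.

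VEGFA was the member called, in 1 comparison. For ARID1A against DMSO, 0 of 33 members passed at an adjusted p below 0.05 (limma over 12698 genes, Benjamini-Hochberg), against 2.84% of all genes (2.01% higher, 0.835% lower). With the labelled batch as a block 1 member passed, VEGFA, against 6.10% of all genes (3.82% higher, 2.28% lower). The unadjusted p was below 0.05 for 7 of 33 members (21.2%) and for 19.2% of all genes. Differences, here and below in log2 units, had a median of 0.02 over the members, against -0.00 over all genes, and ran from -0.34 to 0.65. They were positive for 17 members and negative for 16.

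For GSK126 against DMSO, 0 of 33 members passed, with or without the batch block, and 0% of all 12698 genes did. The unadjusted p was below 0.05 for 2 members (6.06%) and for 9.33% of all genes. The members' median was 0.00, against -0.00 for all genes, and their differences ran from -0.27 to 0.37. For GSK126 against ARID1A, 1 of 33 members passed, lower, against 2.50% of all genes (0.953% higher, 1.54% lower). That member was VEGFA. It also passed with the block, again as 1 of 33, against 4.17% of all genes (1.81% higher, 2.36% lower). The unadjusted p was below 0.05 for 8 members (24.2%) and for 16.5% of all genes. The members' median was 0.01, against -0.01 over all genes, and differences ran from -0.80 to 0.52. The comparisons against DMSO share the DMSO arrays, and GSK126 against ARID1A reuses the other arrays of both.

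**Figure D1:**
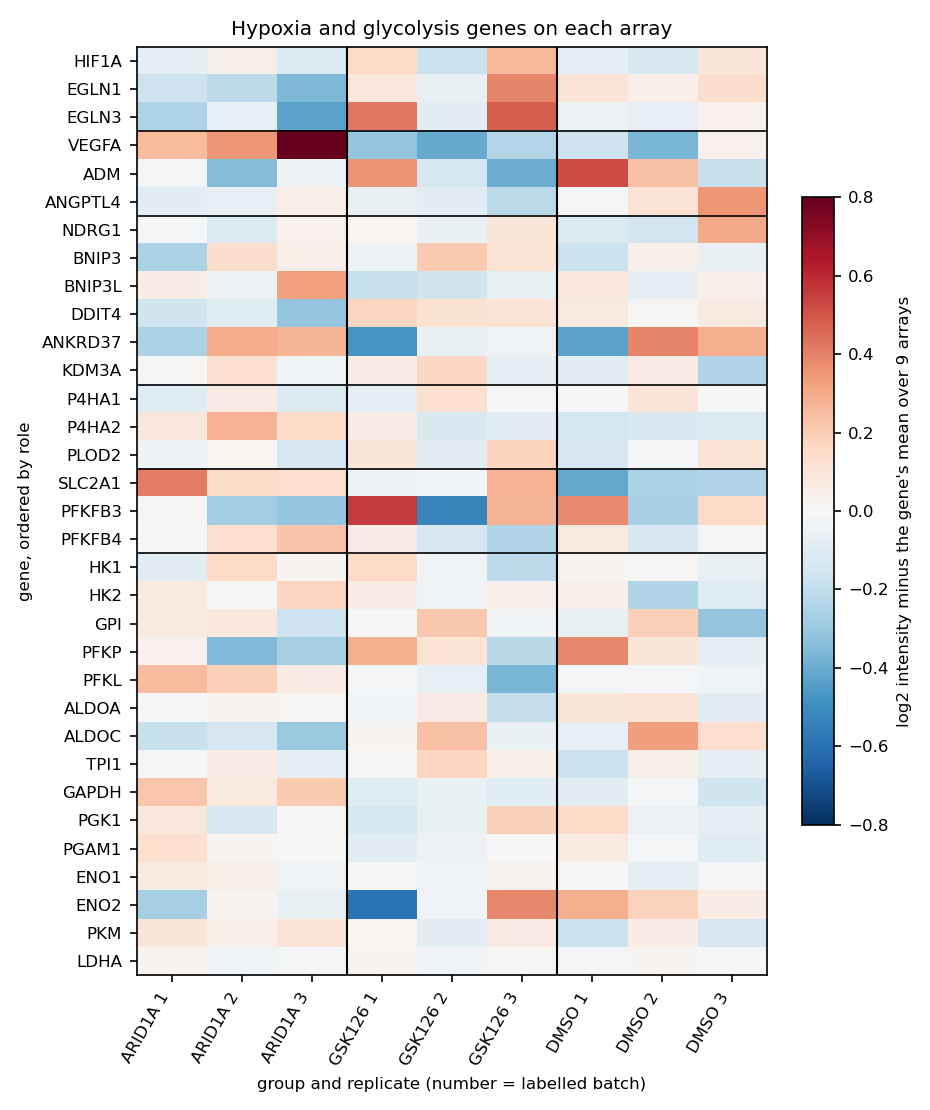
Normalised log2 intensity of each of the 33 members tested (rows, ordered by role, black lines between roles) on each of 9 arrays (columns: ARID1A, GSK126, DMSO, replicate number equal to labelled batch), minus that member's mean over the 9 arrays. The darkest red cell is VEGFA in ARID1A replicate 3, LDHA is near 0 in every column, and no group of 3 columns is of a single colour across the members.

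Complete separation of the arrays occurred for members in every comparison. All 3 ARID1A arrays lay above all 3 DMSO arrays for 5 members, against 13.3% of all genes, and below for 4, against 11.9%. The 5 were VEGFA, P4HA2, SLC2A1, PFKL and GAPDH, and the 4 were EGLN1, DDIT4, ALDOC and ENO2. All 3 GSK126 arrays lay above DMSO for 2 members, SLC2A1 and DDIT4, against 7.51% of all genes, and below for 1, ANGPTL4, against 7.70%. GSK126 arrays all lay above ARID1A arrays for 3 members, EGLN1, DDIT4 and ALDOC, against 9.67%. They all lay below for 6, VEGFA, BNIP3L, P4HA2, PFKL, GAPDH and PGAM1, against 11.4%.

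Within batches, each being 1 array against 1, the members' median for ARID1A against DMSO was -0.01, 0.01 and 0.08 in batches 1, 2 and 3. It was 0.01, -0.03 and 0.04 for GSK126 against DMSO, and 0.02, -0.02 and 0.04 for GSK126 against ARID1A. ARID1A was above DMSO in every batch for 8 members and below in every batch for 8, against 24.2% and 24% of all genes. GSK126 was above DMSO in every batch for 7 and below for 7, against 19.3% and 20.3%. GSK126 was above ARID1A in every batch for 8 and below for 9, against 19.2% and 21.8%.

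**Figure D2:**
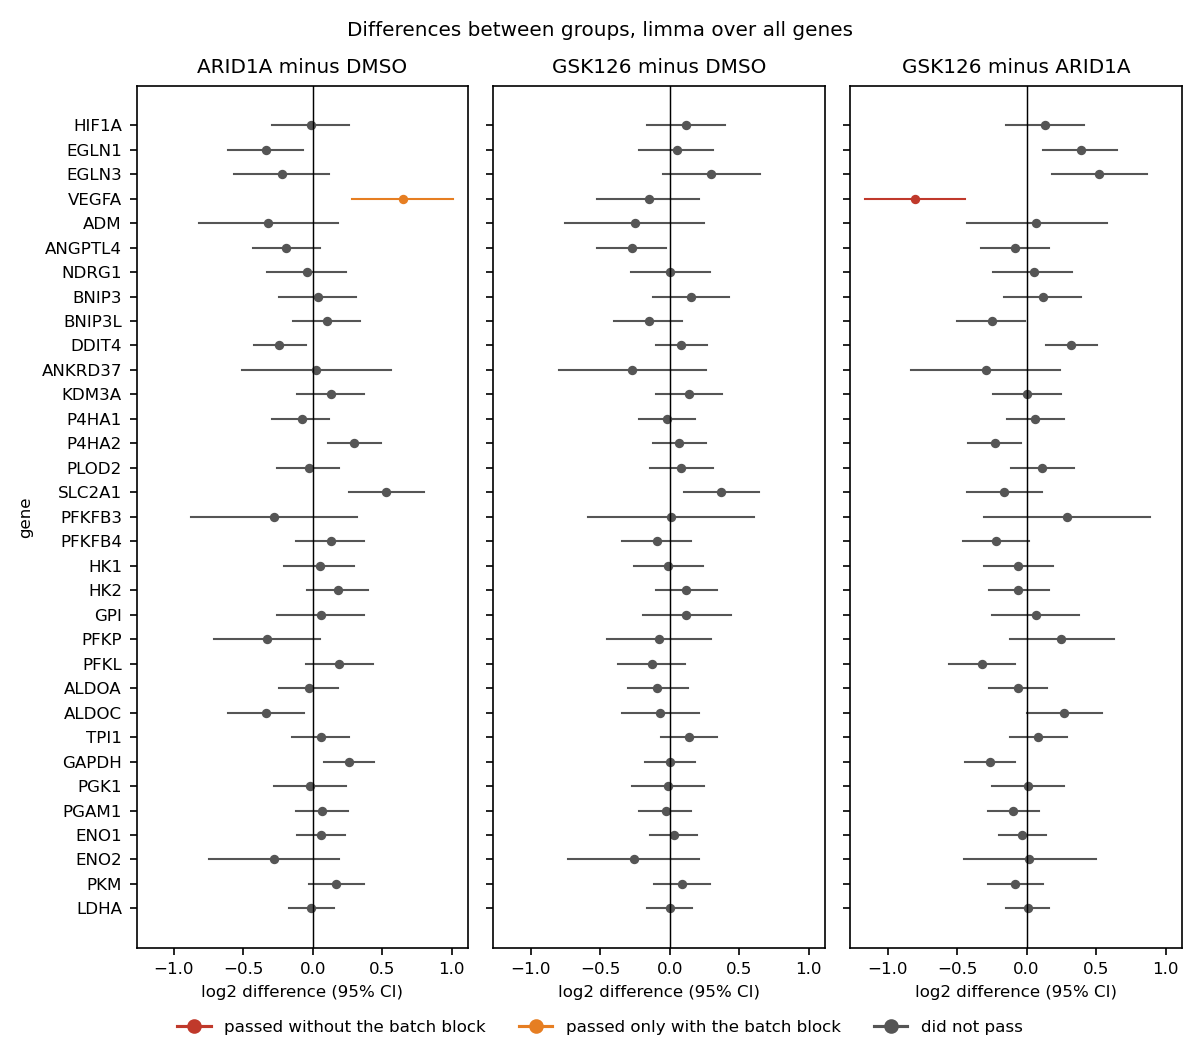
Log2 difference between group means with its 95% confidence interval for each member in the 3 comparisons, from 1 limma model over 12698 genes (3 arrays a group). VEGFA for GSK126 minus ARID1A passed without the batch block (red), VEGFA for ARID1A minus DMSO passed only with it (orange), and every other interval (grey) belongs to a difference that did not pass.

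The transcript of HIF1A itself, whose protein is the oxygen-regulated subunit of HIF-1, did not pass in any comparison. On its brightest probe it read 12.98, 13.11 and 12.95 on the ARID1A arrays, 13.22, 12.89 and 13.32 on the GSK126 arrays, and 12.99, 12.93 and 13.16 on the DMSO arrays. The ranges of the 3 groups overlapped in every pairing. The difference was -0.01 for ARID1A against DMSO (95% confidence interval -0.29 to 0.26), and 0.12 and 0.13 for GSK126 against DMSO and against ARID1A (adjusted p from limma 0.967, 0.801 and 0.666). Its other 2 kept probes gave 0.08 and 0.20 for ARID1A against DMSO, 0.26 and 0.21 for GSK126 against DMSO, and 0.18 and 0.02 for GSK126 against ARID1A, and none passed. On both of them every GSK126 array was above every DMSO array. The GSK126 and DMSO arrays read 12.18, 12.13 and 12.52 against 12.11, 11.92 and 12.03 on the former. On the latter they read 12.94, 12.90 and 13.08 against 12.67, 12.74 and 12.88.

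EGLN1, the main prolyl hydroxylase that marks HIF-1 alpha for degradation, is itself a HIF target, and its promoter is printed above. Its values were 11.81, 11.77 and 11.62 in ARID1A, 12.07, 11.92 and 12.37 in GSK126, and 12.08, 12.03 and 12.12 in DMSO. Every ARID1A array was below every array of both other groups, which overlapped each other. The differences were -0.34 for ARID1A against DMSO (SE 0.12, adjusted p = 0.163), 0.05 for GSK126 against DMSO (0.930) and 0.39 for GSK126 against ARID1A (0.136), and none passed. EGLN3, an inducible relative, read 8.67, 8.85 and 8.49 in ARID1A, 9.34, 8.83 and 9.40 in GSK126, and 8.88, 8.85 and 8.95 in DMSO. GSK126 replicates 1 and 3 were the highest of all 9 and replicate 2 lay among the ARID1A and DMSO arrays. For GSK126 against ARID1A the difference was 0.52 (SE 0.15, adjusted p = 0.124). Without GSK126 replicate 2 it was 0.70 with an adjusted p of 0.0355, the only pass among 17 alternatives. Leaving out 1 array at a time gave 0.42 to 0.70, with adjusted p from 0.0355 to 0.329. Against DMSO, the difference was -0.22 for ARID1A (0.469) and 0.30 for GSK126 (0.601).

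VEGFA, the secreted factor that drives vessel growth, was the member with the widest spread over the 9 arrays. Its brighter probe read 9.86, 9.95 and 10.45 in ARID1A, 9.29, 9.20 and 9.37 in GSK126, and 9.44, 9.24 and 9.64 in DMSO. All ARID1A arrays were above all others, and GSK126 and DMSO overlapped. GSK126 was 0.80 lower than ARID1A on the log2 scale (difference -0.80, SE 0.16, 95% confidence interval -1.16 to -0.44), a fold of 0.575, with an adjusted p of 0.0363. By batch this difference was -0.57, -0.75 and -1.07. ARID1A exceeded DMSO by 0.65 (SE 0.16), 1.56-fold, by 0.42, 0.71 and 0.80 in the batches. The adjusted p of that difference was 0.0677, and 0.0212 with the batch block. GSK126 against DMSO gave -0.15 (SE 0.16, adjusted p = 0.800).

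The other kept VEGFA probe showed the same order of groups. It read 8.81, 8.65 and 9.16 in ARID1A, 7.50, 7.59 and 8.06 in GSK126, and 8.04, 8.00 and 8.23 in DMSO. On this probe, too, every ARID1A array was above the rest. The differences were -1.15 for GSK126 against ARID1A (adjusted p over all kept probes 0.0214), 0.78 for ARID1A against DMSO (0.0711, and 0.0173 with the block) and -0.37 for GSK126 against DMSO (0.560). A further VEGFA probe was detected on 0 of 9 arrays. For the brighter probe, the GSK126 against ARID1A call was lost when any ARID1A array, any GSK126 array or DMSO replicate 1 was left out (7 of 9 omissions), where adjusted p lay between 0.0501 and 0.103. It was also lost with the 6 compared arrays alone (0.067) and with adjustment over all kept probes (0.0542).

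Other secreted members did not pass. ANGPTL4, a secreted regulator of lipoprotein lipase, read 7.93, 7.95 and 8.07 in ARID1A, 7.96, 7.93 and 7.80 in GSK126, and 8.01, 8.13 and 8.37 in DMSO. All GSK126 arrays were below all DMSO arrays, with a mean difference of -0.27 (SE 0.11, adjusted p = 0.497). The ARID1A difference was -0.19 (0.371). Without background correction the GSK126 difference was -0.14. The other kept ANGPTL4 probe, detected on 7 of 9 arrays, gave -0.11 for GSK126 against DMSO. On it the arrays overlapped (6.77, 6.83 and 7.50 in GSK126, 7.33, 6.73 and 7.37 in DMSO). ADM, the vasodilator peptide adrenomedullin, differed by -0.32, -0.25 and 0.07 in ARID1A against DMSO, GSK126 against DMSO and GSK126 against ARID1A, with an SE of 0.22 and overlapping arrays each time.

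Among stress and mitophagy genes, DDIT4, an inhibitor of mTORC1 whose promoter is printed above, separated the groups most clearly. It read 14.25, 14.31 and 14.10 in ARID1A, 14.58, 14.53 and 14.52 in GSK126, and 14.48, 14.42 and 14.48 in DMSO. The arrays fell in 3 bands with no overlap, ARID1A lowest and GSK126 highest. The steps were small: -0.24 for ARID1A against DMSO (SE 0.08, adjusted p = 0.159), 0.08 for GSK126 against DMSO (0.789) and 0.32 for GSK126 against ARID1A (SE 0.08, 0.0814). The last passed without background correction and in the authors' deposited values (adjusted p = 0.0375 in each). These were the only passes among 17 alternatives.

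BNIP3, a mitochondrial outer membrane receptor for mitophagy with the most matches of the promoters printed, read 12.55, 12.94 and 12.84 in ARID1A, 12.76, 13.01 and 12.91 in GSK126, and 12.63, 12.84 and 12.74 in DMSO. Batch 1 was the lowest array of every group, and the groups overlapped. GSK126 exceeded DMSO in each batch, by 0.13, 0.17 and 0.16, a mean of 0.15 that did not pass (SE 0.12, adjusted p = 0.733, and 0.420 with the block). ARID1A against DMSO was 0.04 and GSK126 against ARID1A 0.12.

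ANKRD37, an ankyrin repeat protein and known HIF target, was dim and followed the batches. It read 6.80, 7.35 and 7.32 in ARID1A, 6.58, 6.99 and 7.02 in GSK126, and 6.62, 7.44 and 7.34 in DMSO, detected on 3, 2 and 2 arrays of those groups. Batch 1 was lowest in every group. GSK126 was below ARID1A in each batch, with differences of -0.21, -0.36 and -0.30, and the mean of -0.29 did not pass (adjusted p = 0.604, and 0.131 with the block). GSK126 against DMSO was -0.27 (0.762) and ARID1A against DMSO 0.02. The other 3 genes of this role, the stress gene NDRG1, the mitophagy receptor BNIP3L and the histone demethylase KDM3A, had differences between -0.25 and 0.14 over the 3 comparisons. None of them passed, and BNIP3L at -0.25 for GSK126 against ARID1A (adjusted p = 0.285) was the only separation among them. The other BNIP3L probe had the opposite sign there, at 0.11, with overlapping arrays (10.39, 9.85 and 10.16 in GSK126, 10.12, 9.95 and 10.00 in ARID1A).

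No collagen-modifying enzyme passed. P4HA2, a catalytic subunit of collagen prolyl hydroxylase, read 12.11, 12.30 and 12.18 in ARID1A, 12.08, 11.90 and 11.93 in GSK126, and 11.88, 11.90 and 11.91 in DMSO. All ARID1A arrays were above all GSK126 and DMSO arrays. The difference was 0.30 for ARID1A against DMSO (SE 0.09, adjusted p = 0.102), 0.07 for GSK126 against DMSO (0.829) and -0.23 for GSK126 against ARID1A (0.219). The other kept P4HA2 probe gave 0.21, -0.08 and -0.29 in the same order, and none passed. On it the ARID1A and DMSO arrays overlapped (10.59, 10.61 and 10.75 against 10.37, 10.65 and 10.31). P4HA1, the paralog of P4HA2, and the lysyl hydroxylase PLOD2 differed by at most 0.11 in either direction on their brightest probes, with overlapping arrays. The other 2 PLOD2 probes ran from -0.25 to 0.26 and did not pass.

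SLC2A1, the glucose transporter GLUT1, came nearest to passing among members for ARID1A against DMSO. It read 14.05, 13.79 and 13.77 in ARID1A, 13.60, 13.62 and 13.92 in GSK126, and 13.23, 13.39 and 13.40 in DMSO. Every ARID1A and every GSK126 array was above every DMSO array, and the ARID1A and GSK126 arrays overlapped. ARID1A exceeded DMSO by 0.53 (SE 0.12, 1.44-fold, adjusted p = 0.0529, and 0.0540 with the block), by 0.82, 0.40 and 0.37 in the batches. GSK126 exceeded DMSO by 0.37 (SE 0.12, adjusted p = 0.421), and GSK126 against ARID1A was -0.16 (0.581). The ARID1A difference passed in 4 of 17 alternatives. These were no background correction (0.015), the authors' deposited values (0.0137), probes detected on all 9 arrays (0.043) and omission of GSK126 replicate 3 (0.0447). It did not pass in the others, and its adjusted p reached 0.182 when arrays were left out 1 at a time.

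PFKFB3 and PFKFB4 make and break down fructose 2,6-bisphosphate, the activator of phosphofructokinase. PFKFB3 varied more within groups than between them, from 12.97 to 13.29 in ARID1A, 12.75 to 13.84 in GSK126 and 13.02 to 13.66 in DMSO. Its differences of -0.28, 0.01 and 0.29 for ARID1A against DMSO, GSK126 against DMSO and GSK126 against ARID1A each had an SE of 0.27. PFKFB4 differed by 0.13, -0.09 and -0.22 in the same order, and did not pass.

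**Figure D3:**
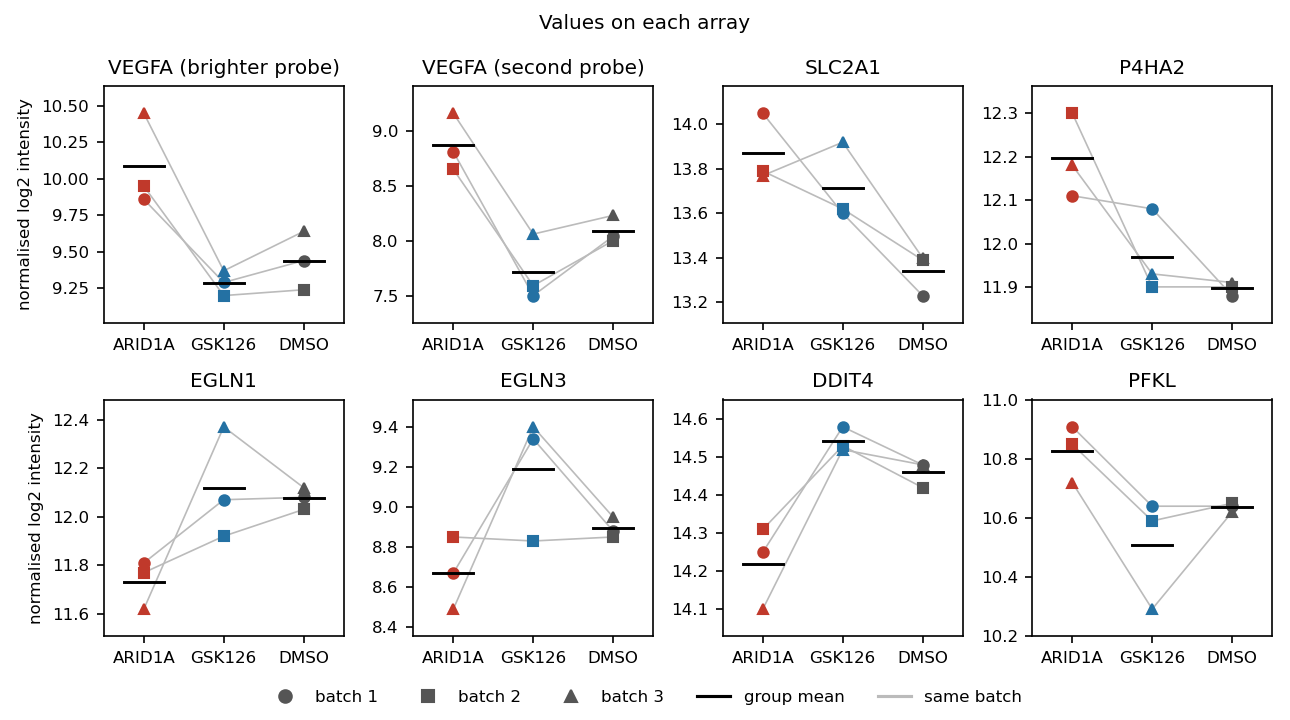
Normalised log2 intensity on every array (points, shape by labelled batch, grey lines joining arrays of a batch) and group mean (bars) for ARID1A, GSK126 and DMSO, each panel on its own axis that does not start at 0. Every ARID1A array is above every DMSO array for both VEGFA probes, SLC2A1, P4HA2 (brightest probe) and PFKL. It is below every DMSO array for EGLN1 and DDIT4, while EGLN3 is high on 2 of 3 GSK126 arrays.

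All 15 glycolytic enzymes listed were tested, and 0 passed in any comparison, with an unadjusted p below 0.05 for 2 in ARID1A against DMSO, 0 in GSK126 against DMSO and 2 in GSK126 against ARID1A. These are 13.3%, 0% and 13.3% of the enzymes, against 19.2%, 9.33% and 16.5% of all genes. Their median difference was 0.06 for ARID1A against DMSO, -0.01 for GSK126 against DMSO and -0.03 for GSK126 against ARID1A. The widest ranges were -0.34 to 0.26 for ARID1A against DMSO and -0.32 to 0.27 for GSK126 against ARID1A. HK2, the hexokinase induced by HIF, read 11.07, 10.98 and 11.16 in ARID1A, 11.05, 10.96 and 11.03 in GSK126, and 11.03, 10.75 and 10.89 in DMSO. The groups overlapped, and the differences were 0.18 (adjusted p = 0.348), 0.12 (0.734) and -0.06 (0.828) for ARID1A against DMSO, GSK126 against DMSO and GSK126 against ARID1A. Hexokinase HK1 and the isomerase GPI stayed within 0.12 in either direction.

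The phosphofructokinases, which commit sugar to glycolysis, gave opposite signs for ARID1A against DMSO. PFKL read 10.91, 10.85 and 10.72 in ARID1A, 10.64, 10.59 and 10.29 in GSK126, and 10.64, 10.65 and 10.62 in DMSO, with ARID1A above both other groups. The difference was 0.19 for ARID1A against DMSO (0.363), -0.13 for GSK126 against DMSO (0.752) and -0.32 for GSK126 against ARID1A (SE 0.11, adjusted p = 0.170). PFKP read 11.78, 11.39 and 11.48 in ARID1A, 12.03, 11.85 and 11.52 in GSK126, and 12.13, 11.84 and 11.67 in DMSO. The ARID1A arrays tended to be the lowest, with overlap. Its differences were -0.33 (SE 0.17, adjusted p = 0.324, and 0.0847 with the block), -0.08 and 0.25 in the same order.

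Aldolase, which splits the 6-carbon sugar, is present as ALDOA and ALDOC. ALDOC read 8.41, 8.45 and 8.29 in ARID1A, 8.61, 8.82 and 8.53 in GSK126, and 8.52, 8.92 and 8.72 in DMSO. All ARID1A arrays were below all others, with a difference of -0.34 against DMSO (SE 0.12, adjusted p = 0.175, and 0.0815 with the block). GSK126 differed from ARID1A by 0.27 (0.307) and from DMSO by -0.07 (0.897). Without background correction the ARID1A difference was -0.20. ALDOA differed by at most 0.09 in either direction on its brightest probe. Its other kept probe gave -0.14, -0.16 and -0.02 for ARID1A against DMSO, GSK126 against DMSO and GSK126 against ARID1A, and did not pass.

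GAPDH, the dehydrogenase often used as a loading control, is described outside the rule for named genes, after its values were seen. It read 15.90, 15.76 and 15.89 in ARID1A, 15.58, 15.62 and 15.58 in GSK126, and 15.59, 15.67 and 15.52 in DMSO. All ARID1A arrays were above all others. The difference was 0.26 for ARID1A against DMSO (SE 0.08, adjusted p = 0.128), 0.00 for GSK126 against DMSO and -0.26 for GSK126 against ARID1A (0.148). Its other 2 probes gave 0.38 (adjusted p over probes 0.0523) and 0.33 (0.111) for ARID1A against DMSO. PGK1, the next enzyme and a textbook HIF target, read 14.28, 14.06 and 14.20 in ARID1A, 14.05, 14.13 and 14.38 in GSK126, and 14.34, 14.14 and 14.11 in DMSO. On this brightest probe its differences were -0.02, -0.01 and 0.01 in the 3 comparisons, the first with a 95% confidence interval of -0.28 to 0.24. The other kept PGK1 probe gave -0.13, -0.15 and -0.03 in the same order, and none passed (adjusted p over probes 0.495, 0.622 and 0.924). On it every ARID1A array (12.87, 12.85 and 12.72) and every GSK126 array (12.81, 12.74 and 12.81) was below every DMSO array (12.95, 12.90 and 12.98).

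In the lower steps, TPI1, PGAM1, ENO1 and the pyruvate kinase PKM differed by between -0.10 and 0.17 on their brightest probes, and none passed. The other 2 kept PKM probes gave 0.34 and 0.20 for ARID1A against DMSO (adjusted p over probes 0.154 and 0.321), with every ARID1A array above every DMSO array. For GSK126 against DMSO they gave 0.20, again with separated arrays, and 0.04 (0.613 and 0.922). For GSK126 against ARID1A they gave -0.14 and -0.16. ENO2, the enolase known from neurons, read 6.99, 7.28 and 7.20 in ARID1A, 6.67, 7.23 and 7.64 in GSK126, and 7.55, 7.44 and 7.32 in DMSO. The ARID1A arrays were all below the DMSO arrays, and GSK126 spanned both. Its differences were -0.28, -0.26 and 0.02 (SE 0.21 each, adjusted p 0.507, 0.742 and 0.976), and those against DMSO were -0.11 and -0.10 without background correction. LDHA, which turns pyruvate into lactate, read 16.11, 16.07 and 16.08 in ARID1A, 16.11, 16.07 and 16.10 in GSK126, and 16.08, 16.11 and 16.09 in DMSO. The differences were -0.01, -0.00 and 0.01.

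LDHA stood at 93.5% to 98.6% of the brightest raw value of its array, ENO1 at 83.8% to 96% and GAPDH at 63.6% to 83.7%. Whether readings this near the top of the scale still register a difference was not tested. A dimmer LDHA probe read 10.20, 10.16 and 10.13 in ARID1A, 10.42, 10.29 and 10.66 in GSK126, and 10.64, 10.46 and 10.76 in DMSO. Every ARID1A array was below every other on it, with a difference of -0.46 against DMSO (SE 0.12, adjusted p over probes 0.108, and 0.0663 with the block). Another bright LDHA probe gave 0.01, -0.01 and -0.02 for ARID1A against DMSO, GSK126 against DMSO and GSK126 against ARID1A. The dimmer probe gave -0.46, -0.17 and 0.29 in that order. The LDHA probes thus disagreed in size. These 2 also had opposite signs for ARID1A against DMSO and for GSK126 against ARID1A. Over all members, 15 had more than 1 kept probe, and of the 20 further probes, 0 passed for ARID1A against DMSO (1 with the block), 0 for GSK126 against DMSO and 1 for GSK126 against ARID1A, these being the VEGFA probe above.

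HIF targets outside the 37 members held genes that did rise with ARID1A. Of 34 listed, 26 were tested, and 4 (15.4%) were higher and 0 lower in ARID1A against DMSO, against 2.84% of all genes called in either direction. For GSK126 against DMSO 0 passed (unadjusted p below 0.05 for 4), and for GSK126 against ARID1A 3 (11.5%) were lower and 0 higher, against 2.50% of all genes. The unadjusted p was below 0.05 for 9.33% of all genes in GSK126 against DMSO. The median difference was 0.14, 0.09 and -0.14 in that order, against -0.00, -0.00 and -0.01 for all genes. With the batch block, 5 were higher in ARID1A against DMSO, BHLHE41 added, against 6.10% of all genes in either direction. With it, 5 were lower and 1 higher in GSK126 against ARID1A, against 4.17% of all genes, with BHLHE41 and EDN1 added as lower and CXCR4 as higher. The list was drawn up with earlier results of these data known, so nothing particular to it is read from these shares.

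STC1, the secreted glycoprotein stanniocalcin 1, read 8.26, 8.08 and 8.66 in ARID1A, 7.51, 7.20 and 7.29 in GSK126, and 6.76, 6.81 and 6.91 in DMSO, where it was detected on 2 of 3 arrays. The 3 groups did not overlap. ARID1A exceeded DMSO by 1.51 (SE 0.15, adjusted p = 0.00164), and GSK126 was at 0.501 times the ARID1A level (0.0117). GSK126 against DMSO was 0.51 (0.386). Without background correction the first 2 log2 differences were 0.68 and -0.48, and in the authors' deposited values 0.67 and -0.48, and both passed there too. CA12, a carbonic anhydrase of the cell surface that regulates pH, read 9.65, 9.00 and 9.94 in ARID1A, 7.52, 6.30 and 6.66 in GSK126, and 6.63, 6.25 and 6.46 in DMSO. It was detected on 3 of 3, 1 of 3 and 0 of 3 arrays, and ARID1A was at least 6.81-fold above DMSO (adjusted p of the fitted difference 0.00216). For GSK126 against ARID1A the fitted difference was -2.70 (0.00385). The bound depends on the background correction: the fitted difference for ARID1A against DMSO was 3.08 with it, 1.64 without it and 1.62 in the authors' deposited values, and that for GSK126 against ARID1A was -1.48 without it. These differences all passed. MXI1 had the smallest p after STC1 among the listed targets for GSK126 against DMSO, and did not pass (difference 0.43, SE 0.13, adjusted p = 0.420). Every GSK126 array of MXI1 (8.62, 8.75 and 8.72) was above every DMSO array (8.32, 8.39 and 8.10).

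TMEM45A, a membrane protein, read 8.56, 8.20 and 8.98 in ARID1A, 6.63, 6.86 and 7.38 in GSK126, and 6.45, 7.05 and 7.19 in DMSO, with 2 of 3 arrays detected in each of the last 2 groups. ARID1A was above DMSO by 1.69 (SE 0.26, adjusted p = 0.0157) and GSK126 minus ARID1A was -1.63 (0.0179). Leaving out ARID1A replicate 3 or DMSO replicate 1 ended the first call (adjusted p 0.0605 and 0.0547). The second call was lost without ARID1A replicate 1 or 3 or without GSK126 replicate 1 or 2 (adjusted p from 0.0557 to 0.0672). Without background correction the differences were 0.81 and -0.78, and in the authors' deposited values 0.80 and -0.77, and passed. EDN1, the vasoconstrictor peptide endothelin 1, read 8.47, 9.11 and 8.41 in ARID1A, 7.47, 8.07 and 7.80 in GSK126, and 7.06, 7.78 and 7.51 in DMSO. ARID1A was above DMSO by 1.21 (SE 0.24, adjusted p = 0.0353), and GSK126 against ARID1A was -0.89 (0.0996, and 0.0102 with the block). The first call was lost in 8 of 17 alternatives, among them leaving out any ARID1A array, DMSO replicate 1 or 3, or GSK126 replicate 3 (adjusted p up to 0.12). Without background correction the differences were 0.63 (adjusted p = 0.0123) and -0.48 (0.0472), and in the authors' deposited values 0.62 (0.0114) and -0.48 (0.0442), so that GSK126 against ARID1A passed in these.

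**Figure D4:**
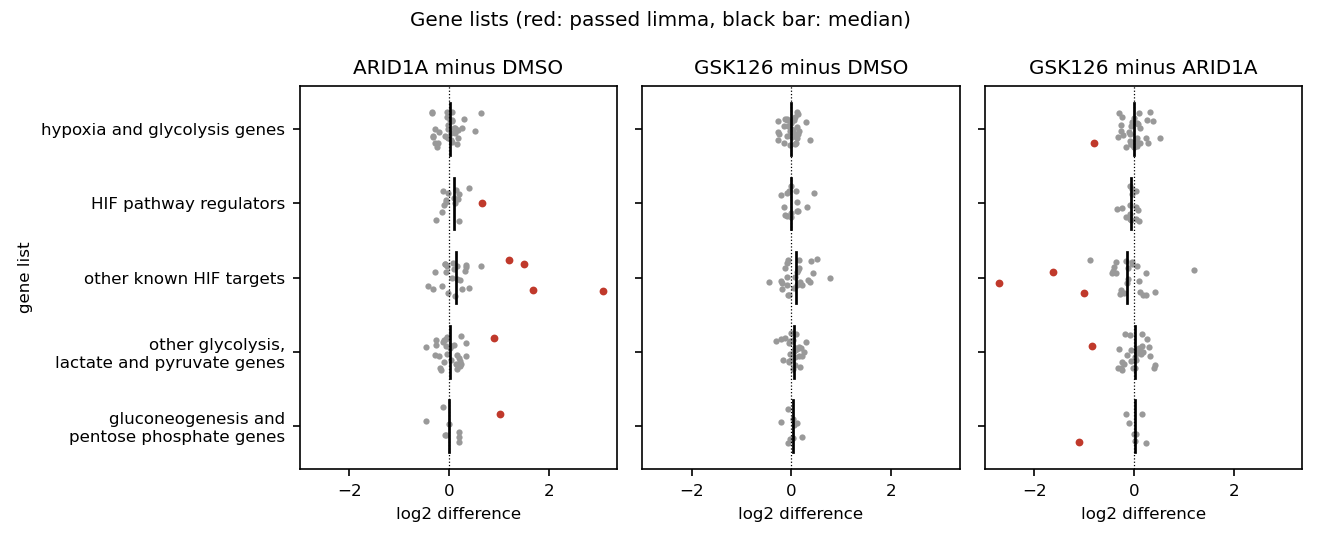
Log2 difference of every tested gene (points, red where limma's adjusted p passed without the batch block) and the median (black bar) for the member genes and 4 further lists, in the 3 comparisons. Red points in ARID1A minus DMSO are all to the right of 0 and absent from the member row, and GSK126 minus DMSO has none; the point farthest right is CA12, plotted at its fitted difference although it was not detected in DMSO.

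Among HIF pathway regulators, 15 of 16 were tested and 1 (6.67%) passed, higher in ARID1A against DMSO, against 2.84% of all genes. CITED2, which competes with HIF for the coactivators EP300 and CREBBP, read 10.35, 10.38 and 10.35 in ARID1A, 9.88, 10.09 and 10.11 in GSK126, and 9.62, 9.92 and 9.57 in DMSO. ARID1A was above both other groups, and GSK126 and DMSO overlapped. The difference was 0.66 for ARID1A against DMSO (SE 0.11, adjusted p = 0.0205), and the call was lost without any ARID1A array or without DMSO replicate 1 or 3 (adjusted p from 0.0567 to 0.0927). GSK126 gave 0.32 against DMSO (0.455) and -0.33 against ARID1A (0.172). For GSK126 against DMSO and against ARID1A 0 of 15 regulators passed, with an unadjusted p below 0.05 for 2 and 1 (13.3% and 6.67%, against 9.33% and 16.5% of all genes).

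Of 40 other genes of glycolysis, lactate and pyruvate, 29 were tested, 1 was higher in ARID1A than in DMSO and 1 lower in GSK126 than in ARID1A (3.45% each, against 2.84% and 2.50% of all genes). Both calls were GALM, the mutarotase that interconverts the anomers of hexose sugars. It averaged 11.99 ± 0.18 in ARID1A, 11.14 ± 0.09 in GSK126 and 11.08 ± 0.10 in DMSO (log2 intensity, SD, n = 3 each), with every ARID1A array above all others. The differences were 0.91 (SE 0.11, adjusted p = 0.0047) for ARID1A against DMSO and -0.85 (0.00637) for GSK126 against ARID1A. GSK126 against DMSO was 0.06, and 0 of the 29 passed there (unadjusted p below 0.05 for 2, or 6.9%, against 9.33% of all genes). The list's medians were 0.02, 0.06 and 0.03.

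Of 15 genes of gluconeogenesis and the pentose phosphate pathway, 9 were tested, with 1 higher in ARID1A than in DMSO, 1 lower in GSK126 than in ARID1A and 0 for GSK126 against DMSO (unadjusted p below 0.05 for 1). A single gene is 11.1% of the 9, against 2.84%, 2.50% and 0% of all genes called in these comparisons. PC, pyruvate carboxylase, which makes oxaloacetate from pyruvate, read 8.07, 8.40 and 8.48 in ARID1A, 6.97, 7.28 and 7.41 in GSK126, and 7.10, 7.58 and 7.19 in DMSO. ARID1A arrays lay above all others. The differences were 1.03 (SE 0.17, adjusted p = 0.0182) for ARID1A against DMSO, lost without ARID1A replicate 2 or 3 or DMSO replicate 1 or 3 (adjusted p from 0.0515 to 0.0783), and -1.10 (0.0137) for GSK126 against ARID1A. That second call was lost without ARID1A replicate 3 (0.0595) and with all kept probes averaged (0.0724). Without background correction the differences were 0.49 and -0.52, and in the authors' deposited values 0.48 and -0.51, and passed. PCK2, the mitochondrial PEP carboxykinase, differed by -0.46 in ARID1A against DMSO (SE 0.13, adjusted p = 0.0902) and passed with the block (0.0272).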

How the data were processed

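Total RNA of 9 OVISE samples was hybridised to an Illumina array of 47323 probes. The deposited table of raw intensity per probe came from GenomeStudio, per the submitters' processing notes that name no version; its values show no background subtraction. It also holds the authors' detection p-values. The authors' deposited value table holds intensity that appears quantile normalised; which arrays set its quantiles and its exact processing are not stated.

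Raw intensity was corrected by normexp (negative controls inferred from detection p-values, offset 16), quantile normalised and put on a log2 scale with neqc of limma 3.58.1 in R 4.3.3. The filter of 3 or more arrays with a detection p below 0.05 kept 23014 probes (48.63%). Of all probes 30113 had 1 gene symbol, 8 several and 17202 none; 30074 symbols were updated to RefSeq names of GRCh38.p14. The kept probe brightest over the 9 arrays stood for its gene. All arrays entered 1 limma model of 3 group means, with two-sided tests and a Benjamini-Hochberg threshold of 0.05 across 12698 genes; adjusted p-values are limma's from this model except where another adjustment is named. The pipeline was tested on simulated data that had no batch structure. The planted differences were larger than any fitted for the members' brightest probes. That test therefore does not show how often differences of the members' size would pass. Precision is limited by the number of arrays.

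The labels give the replicate number as a shared batch. Deviations from group means correlated at 0.102 to 0.326 for 9 same-batch pairs and at -0.227 to 0.042 for 18 different-batch pairs, so batch as a block was an alternative fit. Others changed background correction, value table, detection filter, probe averaging, and arrays in the fit. An "at least" fold sets the detected group's mean against the dim group's mean of the higher of the dim probe's own value and the lowest detected signal, per array.

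The members and further lists were chosen with earlier results of these data known. Members given array by array were those passing in any comparison and 11 set by name (CA9, PDK1 and SLC16A3 had no tested probe). To these were added the 3 highest and lowest differences per comparison. In the further lists up to 4 passing genes, otherwise those with the smallest p, were picked. Of the latter, EP300, SIAH1, PGM2, BPGM and G6PC3 were followed under the alternative fits, and their main values are not given.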

Additional observations from a re-analysis of the deposited data

How the results depend on the processing

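With the labelled batch as a replicate block, 774 genes passed for ARID1A against DMSO (361 without it) and 530 for GSK126 against ARID1A (317 without it), and VEGFA became the 1 member passing in the first. The block changed the call of no other member. Without background correction 632 and 513 genes passed, with 2 members in each (VEGFA and SLC2A1, and VEGFA and DDIT4). With the authors' deposited values, 644 and 513 genes passed, with the same 2 members in each. With the 6 compared arrays alone 232 and 168 genes passed, with 0 members in each. For ARID1A against DMSO 1 member passed among probes detected on all 9 arrays (SLC2A1) and 1 with kept probes averaged (VEGFA). Leaving out 1 array at a time gave 92 to 404 genes and 0 to 1 members for ARID1A against DMSO, and 108 to 255 genes and 0 to 1 members for GSK126 against ARID1A. For GSK126 against DMSO 0 genes and 0 members passed under any of these. The members' medians moved by less than the spread between replicates throughout. Of 1521 values of 32 named genes under the alternatives, 0 that passed changed sign and 44 that passed neither way did, with the cause not tested. For ARID1A against DMSO, the log2 differences that crossed 0 when arrays were left out ranged as HIF1A -0.06 to 0.05, BNIP3 -0.05 to 0.15, ANKRD37 -0.23 to 0.21, PGK1 -0.07 to 0.05 and PGM2 -0.07 to 0.02, and those that crossed with probes averaged were HIF1A 0.09 and SIAH1 -0.07. For GSK126 against DMSO, the log2 differences that crossed 0 when arrays were left out ranged as TMEM45A -0.16 to 0.22, PC -0.17 to 0.07, PGK1 -0.11 to 0.06, LDHA -0.01 to 0.01, GAPDH -0.04 to 0.04, EGLN1 -0.08 to 0.15, PFKP -0.19 to 0.06, ALDOC -0.17 to 0.03 and SIAH1 -0.03 to 0.00, and those that crossed with probes averaged were P4HA2 -0.01, TMEM45A -0.01 and PC 0.26. For GSK126 against ARID1A, the log2 differences that crossed 0 when arrays were left out ranged as PGK1 -0.09 to 0.08, ENO2 -0.21 to 0.28, MXI1 -0.03 to 0.22, BPGM -0.04 to 0.17 and G6PC3 -0.05 to 0.07, and those that crossed with probes averaged were PGK1 -0.01. Without background correction ANKRD37 differed by -0.12 in GSK126 against ARID1A (-0.29 with it). ANKRD37 and ENO2 were not detected on every array, LDHA and ENO1 read near the top of the scale, and 3 arrays a group limit what can pass.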
